A study of Rattus norvegicus with 2 samples.

Results

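Cdh2, which encodes N-cadherin, and the genes of the catenins that bind its cytoplasmic tail were followed in cultured rat cortical neurons. The 7 genes, Cdh2, Ctnnb1, Ctnna1, Ctnna2, Ctnnd1, Ctnnd2 and Jup, were chosen by name and not by their values. Of these, 6 had a value among the 9894 genes listed in either library, and Ctnnd2 was matched to no listed identifier and was not analysed here.

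Cells were dissociated from the cortex of Sprague-Dawley rats at E16 and electroporated with plasmid, and RNA was taken after 48 h in Neurobasal medium with FBS and B27. The control library came from cells given the control (Scramble) plasmid and the RNAi library from cells given a plasmid against PIWIL1, an RNA-binding protein of the PIWI family. Apart from the plasmid, the labels describe both cultures alike. No source used here says which of the PIWIL1 siRNAs was used, how many animals were pooled or what share of the cells took up plasmid. Each group was 1 library, so every difference below lies between 2 libraries and has no replicate check. Piwil1 itself was matched to no listed identifier, and the knockdown was therefore not checked here.

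Classical cadherins hold neighbouring cells together through calcium-dependent contacts between like molecules. In the developing cortex N-cadherin lies at the junctions of radial glia, the progenitors of cortical neurons, and on migrating neurons that travel along their fibres. Inside the cell, p120-catenin binds the tail near the membrane and slows removal of the cadherin from the surface, β-catenin or its relative plakoglobin binds further along the tail, and α-catenin connects β-catenin to actin. β-Catenin is also the transcriptional coactivator of Wnt signalling.

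The method, digital gene expression, counts short tags of 21 bases. A tag starts at a CATG in the cDNA, and the authors numbered the sites of each gene from its 3′ end, so that site 1 is the CATG nearest the poly(A) tail. The control library held 1947600 tag copies on 9496 genes and the RNAi library 1865913 copies on 9297 genes. Levels are given as tag TPM, the copies of a gene's tags scaled to all clean tags that were read, whatever the length of the gene. At this depth 3 copies equal 0.886 TPM in the control library and 0.908 TPM in the RNAi library.

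The following were among the most copied tags of each gene and are shown because the comparison between the libraries rests on them. Capitals mark the CATG at the start of the tag and the 2 bases at its end, since the ratio of a tag between these libraries varied with its last bases.
Cdh2, site 1: CATGttaatatctttcgttAT
Cdh2, site 2: CATGtgtatgtattatttgGA
Cdh2, site 3: CATGtacactttttttattTT
Cdh2, site 5: CATGtatggtggtggtgatGA
Ctnnb1, site 2: CATGagatgggtggccaccAC
Ctnnb1, site 5: CATGcgcctttgcgggaacAG
Ctnna1, site 1: CATGcttcccctgttattcCA
Ctnna2, site 1: CATGcggattcttaactgaGG
Ctnnd1, site 4: CATGctattcctaacttggTA
Jup, site 2: CATGctggcctagctggctCC
Jup, site 1: CATGggtttggggaggactGA

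Cdh2 mRNA fell in the RNAi library and was the only one of the 6 genes that passed the test on the deposited counts. Its identifier in the deposited tables is NM_031333. It had 1064 tag copies in the control library and 680 in the RNAi library. These correspond to 314 TPM (exact 95% Poisson interval 296 to 334) and 206 TPM (191 to 222), and the intervals do not overlap. The RNAi level was 0.655 of the control level, a log2 ratio of −0.61 with an exact 95% interval of −0.75 to −0.47 for counting error. Fisher's exact test on these 2 libraries gave a Benjamini-Hochberg adjusted p of 4.40e-15 over 9894 genes. A gene was called when its adjusted p was 0.05 or less and its log2 ratio at least 0.58 in size, thresholds taken from the study. By this rule 5.97% of all genes were called lower and 2.96% higher, against which the count of 1 called member of 6 is read. Among the 6010 genes with at least 50 copies, which include all 6 members, 8.22% were called lower, and 11.2% had a lower ratio than Cdh2. The ratio of Cdh2 lay close to the threshold: scaled with edgeR's TMM factors it was −0.52, and corrected for how tags with the same last bases differed it was −0.45, so that neither passed the size threshold although both adjusted p were below 0.05. In RNA from whole cultures, fewer cells of a type and less RNA per cell cannot be told apart.

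**Figure D1:**
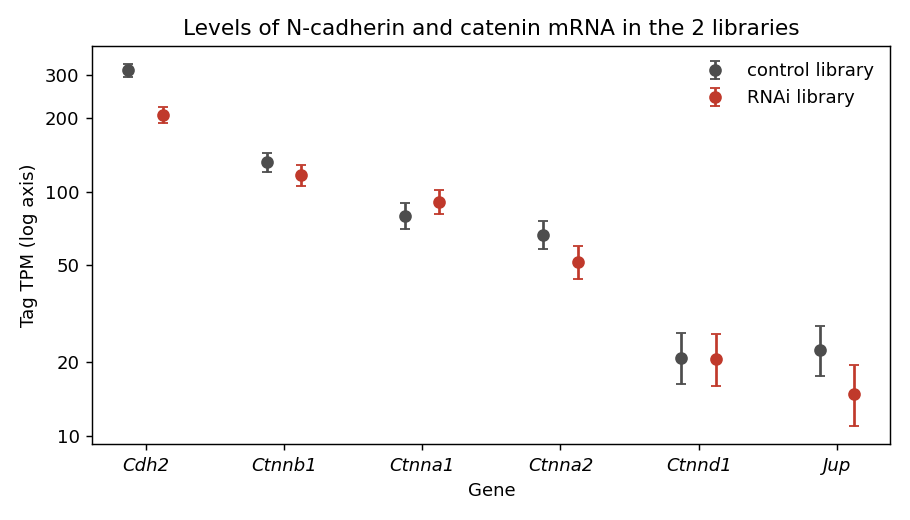
Tag TPM of the 6 genes on a log axis in the control library (grey) and the RNAi library (red), with exact 95% Poisson intervals for counting error as bars. The intervals of Cdh2, 296 to 334 and 191 to 222 TPM, lie apart, and those of the other genes shown overlap. The share of all genes whose intervals lie apart is not given here, so this contrast has no background.

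The β-catenin gene Ctnnb1 (NM_053357) was the most copied of the catenins. It had 447 copies in the control library and 386 in the RNAi library, or 132 TPM (120 to 145) and 117 TPM (105 to 129), with intervals that overlap. Its log2 ratio was −0.18 (−0.38 to 0.02), and it did not pass the test (Fisher's exact test, adjusted p = 0.354).

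Jup encodes plakoglobin, which can take the place of β-catenin on the cadherin tail and is also part of desmosomes. Jup (NM_031047) had 76 and 49 copies, 22.4 TPM (17.7 to 28.1) in the control library and 14.8 TPM (11.0 to 19.6) in the RNAi library. The intervals overlap. Its log2 ratio of −0.60 (−1.15 to −0.06) was close in size to that of Cdh2, but it rested on fewer copies and did not pass the test (Fisher's exact test, adjusted p = 0.135). By the size of the ratio alone, Cdh2 and Jup are thus 2 of 6 members below the threshold and none is above it, beside 12.3% below and 5.86% above among genes with at least 50 copies. Ctnnb1 made up 85.5% (exact 95% binomial interval 82.2 to 88.4) of the copies of Ctnnb1 and Jup together in the control library and 88.7% (85.4 to 91.5) in the RNAi library. These intervals overlap.

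The α-catenin genes lay on either side of 0. Ctnna1, which encodes αE-catenin and is expressed widely, had 270 copies (79.7 TPM, 70.5 to 89.8) in the control library and 301 (91.1 TPM, 81.1 to 102) in the RNAi library. Ctnna2, which encodes the neural αN-catenin, had 226 copies (66.7 TPM, 58.3 to 76.0) and 170 (51.5 TPM, 44.0 to 59.8). Within each gene the intervals of the libraries overlap. The log2 ratio was 0.19 (−0.05 to 0.44) for Ctnna1 (NM_001007145) and −0.37 (−0.67 to −0.08) for Ctnna2 (NM_001106598). Neither passed Fisher's exact test after adjustment, with adjusted p of 0.238 and 0.0903.

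In the deposited copies the balance between the α-catenins, which does not depend on the scaling of the libraries, differed by more than its counting error. Ctnna1 made up 54.4% (49.9 to 58.9) of the copies of the pair in the control library, 270 of 496, and 63.9% (59.4 to 68.3) in the RNAi library, 301 of 471. These exact intervals do not overlap, and no test was run on them. With the most copied tag of each gene alone, the shares were 69.4% and 77.1%, and with copies corrected for the tag end they were 56.7% and 61.4%. In both alternatives the shares lay closer together. No intervals were computed for them, so a difference beyond counting error was seen for the deposited copies only.

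Of the p120 subfamily, Ctnnd1, the p120-catenin gene itself, had the ratio nearest to 0. Ctnnd1 (NM_001107740) had 71 copies in the control library and 68 in the RNAi library, 20.96 TPM (16.4 to 26.4) and 20.59 TPM (15.99 to 26.1). The log2 ratio was −0.03 with an interval of −0.53 to 0.47 (Fisher's exact test, adjusted p = 1). Its sign depended on the scaling, as it was 0.068 with TMM factors and 0.059 with DESeq2 size factors. The interval leaves out 0.58 in both directions, and smaller changes were not detectable at this depth.

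In both libraries the order by tag TPM was Cdh2, Ctnnb1, Ctnna1, Ctnna2, then Jup and Ctnnd1 close together. In the control library the intervals of Ctnna1 and Ctnna2 overlap, as do those of Jup and Ctnnd1. In the RNAi library Ctnna1 and Ctnna2 lie apart, Jup and Ctnnd1 overlap and have changed places, and Ctnnb1 and Ctnna1 lie apart in both. Because tags were counted per transcript copy and not per base, no length enters this order, but genes differ in how many sites are cut and read.

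Of the 6 genes, 5 did not pass the test, and most ratios lay below 0. The median log2 ratio over the 6 genes was −0.28, with 5 below 0 and 1 above. Among these 5, Ctnnd1 had a sign that depended on the scaling. Over the 8899 genes listed in both libraries the median was −0.09, with 5041 below 0 and 3851 above. Set against the catenins, Cdh2 made up a smaller share of the copies in the RNAi library. Cdh2 was 70.4% (68.0 to 72.7) of the copies of Cdh2 and Ctnnb1 together in the control library and 63.8% (60.8 to 66.7) in the RNAi library. Against Ctnna1 the share was 79.8% (77.5 to 81.9) and 69.3% (66.3 to 72.2). In these pairs the exact intervals of the deposited copies do not overlap. With copies corrected for the tag end the shares lay closer together, at 69.6% and 64.8% against Ctnnb1 and 78.2% and 71.5% against Ctnna1. No intervals were computed for any corrected share. Against Ctnna2 the share was 82.5% (80.3 to 84.5) and 80.0% (77.2 to 82.6), against Ctnnd1 93.7% (92.2 to 95.1) and 90.9% (88.6 to 92.9), and against Jup 93.3% (91.7 to 94.7) and 93.3% (91.2 to 94.99), with overlap in each. Of all copies on Cdh2 and the 5 catenin genes together, Cdh2 held 49.4% (47.3 to 51.5) in the control library and 41.1% (38.7 to 43.5) in the RNAi library. With copies corrected for the tag end this share was 48.1% and 42.5%. These shares were chosen after the values were seen and carry no test.

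**Figure D2:**
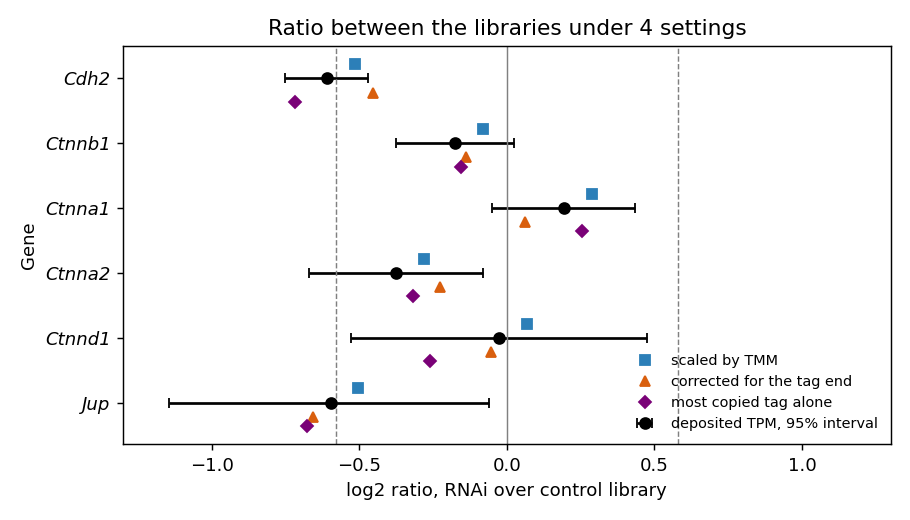
Log2 ratio of RNAi over control library for the 6 genes, as deposited with exact 95% intervals (black), scaled by TMM (blue squares), corrected for the tag end (orange triangles) and from the most copied tag alone (purple diamonds). Dashed lines mark a log2 ratio of 0.58 in either direction. Cdh2 stayed below 0 in each, from −0.72 with its most copied tag to −0.45 with the tag-end correction, and Ctnnd1 lay on both sides of 0.

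A gene is read from several tags, each of which arises at its own CATG. The tags of a gene come from the same 2 libraries and are not independent repeats of a difference. Cdh2 was listed with 15 tags at 13 sites, of which 8 had at least 20 copies and could be tested. All 8 had a log2 ratio below 0, and 3 were called lower (Fisher's exact test, adjusted by Benjamini-Hochberg over 16021 tags), where 7.22% of all tested tags were called lower and 4.09% higher. The 3 called tags were those at sites 1, 2 and 3, printed above. The site 1 tag had 561 copies in the control library and 333 in the RNAi library, a log2 ratio of −0.72 (−0.92 to −0.52; adjusted p = 1.05e-10). The site 2 tag had 119 and 63 copies, a log2 ratio of −0.88 (−1.35 to −0.43; adjusted p = 0.00140 by the same exact test). The site 3 tag had 90 and 39 copies, a log2 ratio of −1.17 (−1.75 to −0.61; adjusted p = 0.000312 by the same exact test). Each of these 3 tags thus had fewer copies in the RNAi library by more than its counting error.

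From site 4 on no tag of Cdh2 passed the test. The site 5 tag, the most copied of these, had 122 copies in the control library and 112 in the RNAi library, a log2 ratio of −0.09 (−0.47 to 0.29; adjusted p = 0.942, exact test). The site 4 tag had 41 and 38 copies. The tags at sites 6, 7 and 12 had 25 and 15, 64 and 50, and 13 and 11 copies, so that all 5 tested tags in this stretch were lower in the RNAi library within counting error after adjustment. Summed, sites 1 to 3 had 770 and 437 copies, a log2 ratio of −0.78 (−0.95 to −0.61), and the sites from 4 on had 294 and 243 copies, a log2 ratio of −0.24 (−0.49 to 0.01). These intervals do not overlap, but the division after site 3 was chosen after the values were seen and has no test. The share of Cdh2 copies at site 1 was 52.7% (49.7 to 55.8) in the control library and 49.3% (45.4 to 53.1) in the RNAi library. It did not pass Fisher's exact test (adjusted p = 0.417). This comparison too was added after the tags of Cdh2 were seen. It counts sites 2 and 3 with the later sites and therefore cannot test the division after site 3. Over all 4417 genes whose site 1 share was tested, 5.59% had a lower share in the RNAi library and 8.63% a higher one.

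The last 2 bases of a tag moved with its ratio across all genes, and the values for Cdh2 are given with and without them. Tags ending in AT, as that of site 1 does, had a median log2 ratio of −0.31 relative to all tags, those ending in GA −0.03 and those ending in TT −0.14. With each tag set against the median of its own end, the site 1 tag of Cdh2 had a log2 ratio of −0.42. It was no longer called because it missed the size threshold, although its adjusted p by the exact test was 0.00218. The tags of sites 2 and 3, at −0.85 and −1.03, were still called lower (exact test, adjusted p = 0.00488 and 0.00461). The 2 blocks then lay at −0.54 for sites 1 to 3 and −0.27 for the sites from 4 on. The site 1 share, so corrected, was 50.2% and 51.8%.

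**Figure D3:**
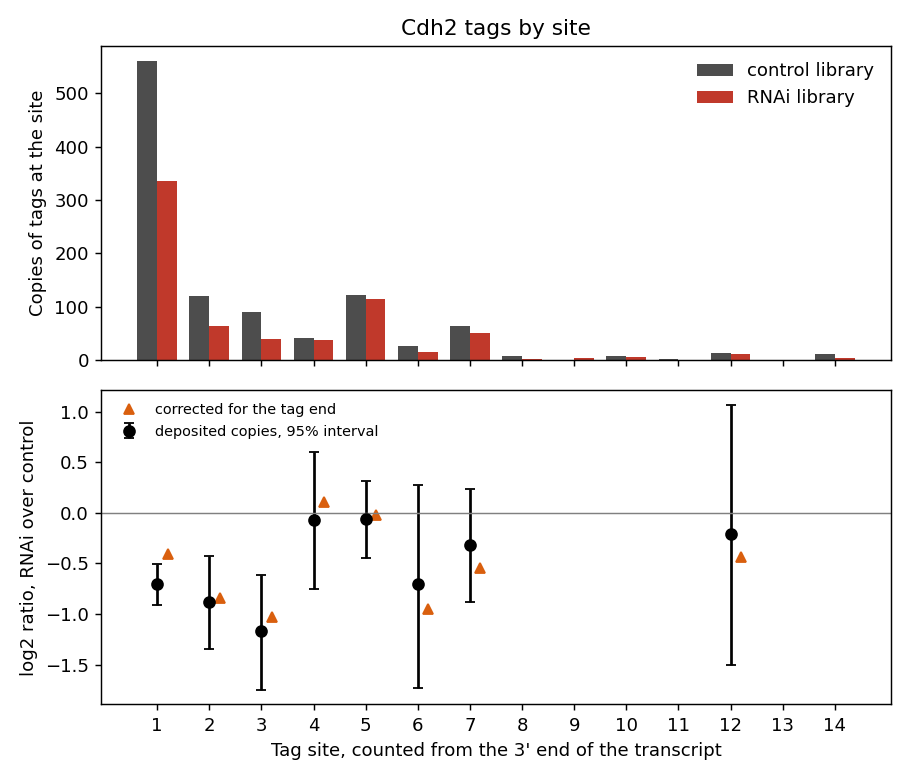
Above, copies of the tags of Cdh2 at each site, counted from the 3′ end, in the control library (grey) and the RNAi library (red). Below, the log2 ratio of sites with at least 20 copies in all, with exact 95% intervals (black) and corrected for the tag end (orange triangles). The intervals of sites 1, 2 and 3 lie wholly below 0 and those of the other sites include it.

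No tag of a catenin gene was called in either direction, beside 7.22% of all tested tags called lower and 4.09% called higher. Without Cdh2, 22 tags of the members had at least 20 copies, 16 with a ratio below 0 and 6 above. Of all 16021 tested tags, 8856 lay below 0 and 7165 above. The median log2 ratio was −0.29 over the 22 tags and −0.08 over all tested tags. For Ctnnb1, 5 of 9 tested tags were below 0 and 4 above. Its most copied tag, at site 2, had 185 copies in the control library and 162 in the RNAi library, whereas the tag at site 5 had 77 and 83. The lowest ratio among its tags was at site 6, with 28 and 12 copies and a log2 ratio of −1.19 (−2.30 to −0.16), which did not pass the test (exact test, adjusted p = 0.0904). That tag ended in GT, an end whose tags had a median of −0.59 relative to all tags.

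Ctnna1 rested mostly on its tag at site 1, which had 209 copies in the control library and 243 in the RNAi library, 79.2% of its copies over both. The log2 ratio of that tag was 0.25 (exact test, adjusted p = 0.174), and tags with its end, CA, had a median of 0.24 relative to all tags. The 2 other tested tags of Ctnna1, at sites 2 and 3, had fewer copies in the RNAi library, 14 and 6 at site 2 and 18 and 10 at site 3. All 5 tested tags of Ctnna2 had a ratio below 0, with 92 and 72 copies at site 1 and 28 and 27 at site 7. Its site 1 tag ended in GG, whose tags had a median of −0.48 relative to all tags. Neither α-catenin gene therefore had a tag that differed by more than counting error after adjustment, and in both the end of the leading tag moved with the ratio.

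The α-catenin genes each had a tag at site 8 that differs from the other's at 1 base, shown because no other tags of different members lie so near each other. They were chosen for this likeness after the tags were seen.
Ctnna1, site 8: CATGatggagatgaccgacTT
Ctnna2, site 8: CATGatggagatgacagacTT
The first had 7 copies in the control library and 5 in the RNAi library and the second 3 and 2, so that these tags held a small part of either gene's copies.

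For Ctnnd1, 3 tags were tested, with 27 and 22 copies at site 4, 15 and 8 at site 5 and 9 and 12 at site 6. For Jup, the tag at site 2 had 41 and 25 copies and that at site 1 had 24 and 16, so that both of its tested tags were lower in the RNAi library without passing the test. Site 1 shares of the catenin genes were 13.2% and 12.7% for Ctnnb1, 77.4% and 82.1% for Ctnna1, 40.7% and 42.4% for Ctnna2, and 31.6% and 32.7% for Jup. None passed the exact test (adjusted p = 0.968, 0.428, 0.934 and 1).

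**Figure D4:**
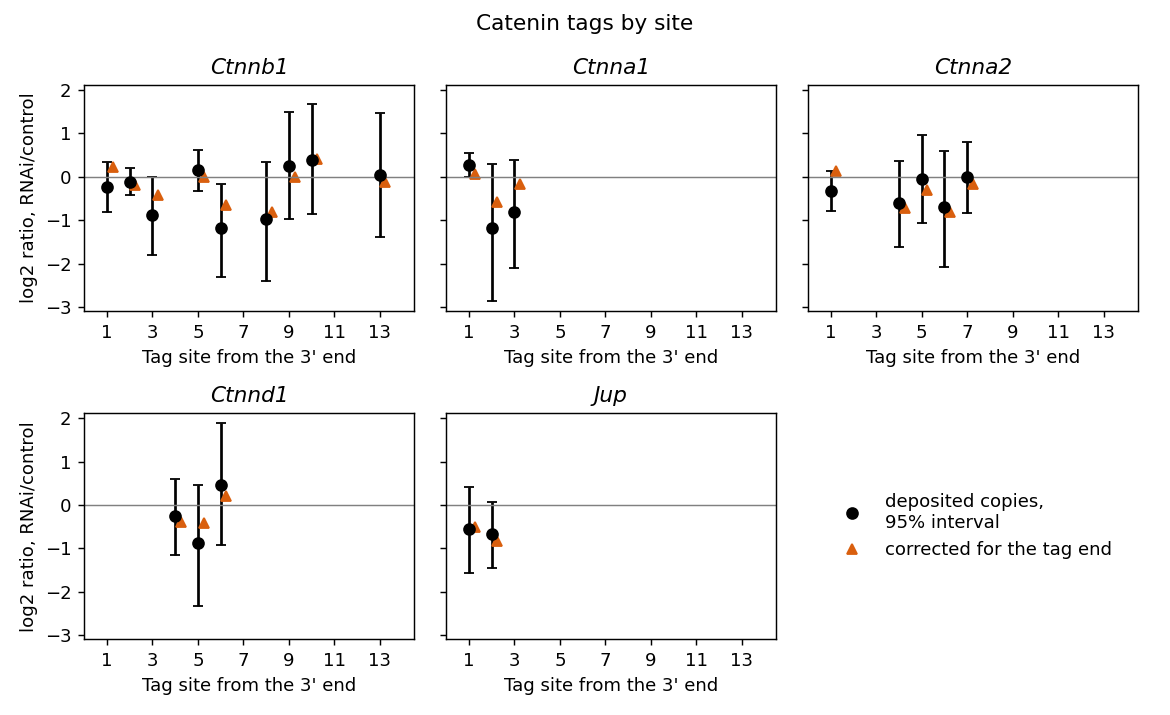
Log2 ratio of RNAi over control library at each site with at least 20 copies, counted from the 3′ end, for the 5 catenin genes, with exact 95% intervals (black) and corrected for the tag end (orange triangles). Most intervals include 0, and no tag passed the adjusted test.

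The genes around the complex were read from 6 lists with 91 genes, of which 66 had a value. Of these, 4 were called lower and 3 higher, or 10.6%, beside 8.93% of all genes called in either direction, and their median log2 ratio was 0. The catenin relatives held 2 of the lower calls among 5 genes with a value. Ctnnbip1, which encodes ICAT, a small protein that blocks β-catenin from binding TCF factors, had 278 copies in the control library and 124 in the RNAi library, a log2 ratio of −1.13 (Fisher's exact test, adjusted p = 1.09e-11). Arvcf, a relative of p120-catenin, had 65 and 31 copies, a log2 ratio of −1.03 (exact test, adjusted p = 0.0121). Both were also called lower with copies corrected for the tag end, at −0.98 and −1.04.

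Among the proteins that connect the complex to actin, 1 of 12 was called lower and none higher. Afdn, which encodes afadin, the actin-binding partner of nectins, had 78 and 37 copies, a log2 ratio of −1.04 (exact test, adjusted p = 0.00377). Corrected for the tag end it was −0.69 and was not called (adjusted p = 0.136). Actn4, the gene of an α-actinin, had 466 and 320 copies, a log2 ratio of −0.51 that did not reach the size threshold although its adjusted p by the exact test was 6.84e-05.

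Of the other cadherins, 7 of 18 had a value and 1 was called. Cdh22 had 31 copies in the control library and 55 in the RNAi library, a log2 ratio of 0.86 (exact test, adjusted p = 0.0423), and it was not called after the tag-end correction, at 0.67 (adjusted p = 0.131). Cdh13, which lacks the cytoplasmic tail that binds catenins, had 434 and 309 copies, a log2 ratio of −0.45 below the size threshold (exact test, adjusted p = 0.000810). Cdh11, a mesenchymal and neural type II cadherin, had 273 and 232 copies, and Cdh10, another type II cadherin, 43 and 24, neither of them called.

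None of 16 enzymes and GTPases known to act on N-cadherin was called, and their median log2 ratio was 0.22. Rab11a, a GTPase of recycling endosomes, had 666 and 535 copies, a log2 ratio of −0.28 (exact test, adjusted p = 0.0186), and Ptpn1, a tyrosine phosphatase that binds the N-cadherin tail, had 28 and 43, a log2 ratio of 0.65 (exact test, adjusted p = 0.205). Of the complex that marks β-catenin for destruction, 1 of 15 genes was called lower and 1 higher. Ppp2ca, the catalytic subunit of protein phosphatase 2A, rose from 364 to 821 copies, a log2 ratio of 1.21 (exact test, adjusted p = 4.54e-43), and it was also called after the tag-end correction, at 1.14. Its scaffold subunit Ppp2r1a had 1639 and 1987 copies, a log2 ratio of 0.31 below the size threshold. The lower call was Csnk1a1, the casein kinase 1α gene, with 16 and 3 copies (exact test, adjusted p = 0.0312), named here after its values were seen because it has fewer copies than the rule for named genes asks. Its log2 ratio was −2.37, and −2.35 after the tag-end correction, where it was not called (exact test, adjusted p = 0.0607). Gsk3b had 20 and 21 copies and Apc 10 and 13, so that these 2 genes were too thinly covered for moderate changes to be detectable. Their relatives Gsk3a and Apc2 were better covered and were not called. Gsk3a had 341 and 319 copies, a log2 ratio of −0.06, and Apc2 had 1123 and 1070, a log2 ratio of −0.03.

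Of the nuclear partners of β-catenin, 1 of 11 was called, Pygo2, a PHD finger protein that joins the β-catenin complex through BCL9. It had 54 and 89 copies, a log2 ratio of 0.76 (exact test, adjusted p = 0.0123), and was called after the tag-end correction too, at 0.84. Smarca4, the ATPase of a chromatin remodelling complex, had 1236 and 1340 copies, a log2 ratio of 0.15 (exact test, adjusted p = 0.0141) far below the size threshold.

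**Figure D5:**
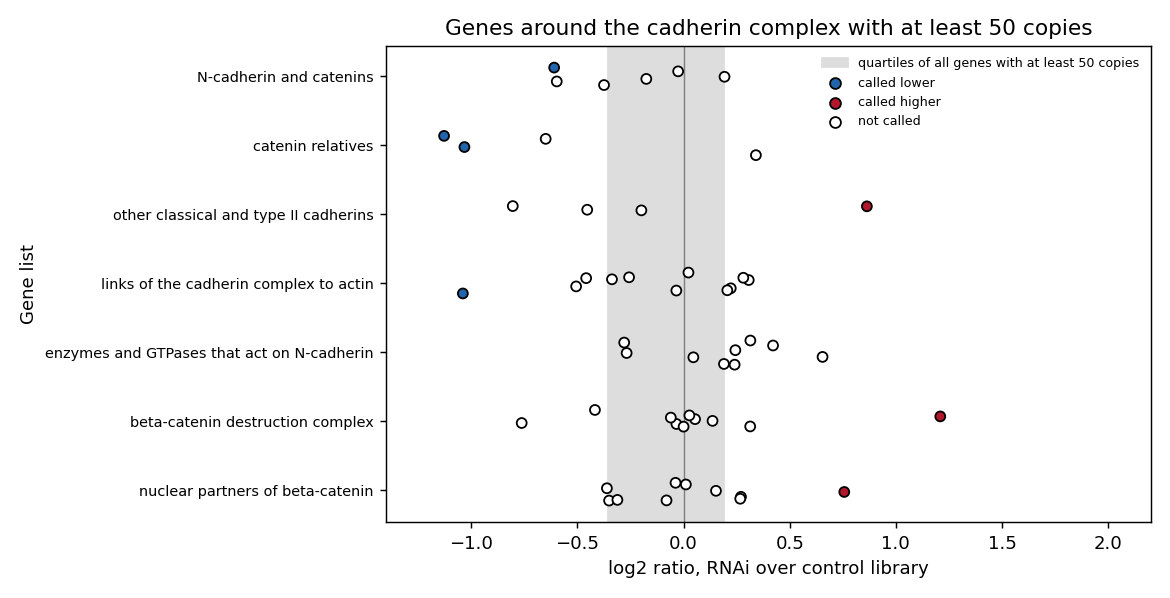
Log2 ratio of RNAi over control library for each gene with at least 50 copies, in the members and in the 6 lists around the complex, coloured by call (blue lower, red higher, white not called). The grey band holds the middle of all genes with at least 50 copies, between the quartiles −0.36 and 0.19, and most genes of the lists lie in or near it.

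Markers of the cell types that the cultures could hold are given because N-cadherin and its catenins are made by several of them. Of 8 markers of neurons, all with a value, 2 were called lower, Snap25 with 918 and 545 copies and Map2 with 24 and 8, and none higher. Over all genes 5.97% were called lower and 2.96% higher. Snap25 was not called after the tag-end correction, at a log2 ratio of −0.55. The summed level of the 8 was 3716 TPM in the control library and 2884 TPM in the RNAi library, most of it Stmn2, with 7484 and 5678 copies and a log2 ratio of −0.36 below the size threshold. Tubb3 had 1538 and 1068 copies and Neurod6 1275 and 849, neither of them past the size threshold, while Dcx had 1337 and 1365, Rbfox3 8 and 8 and Syt1 0 and 5. Of 10 markers of radial glia and progenitors, 7 had a value and none was called, with a sum of 1077 and 1361 TPM. The larger sum came with Vim, an intermediate filament gene also made by other cells, which had 2674 and 3724 copies and did not reach the size threshold at a log2 ratio of 0.51, while Sox2 had 320 and 260 and Nes 181 and 125. Markers of astrocytes and the oligodendrocyte lineage summed to 26.3 and 27.9 TPM over 8 of 9 genes, and those of vascular, meningeal and microglial cells to 448 and 432 TPM over 6 of 10, most of it Col1a1 with 1254 and 1143 copies. Among these 6 genes, 3 had a ratio below 0 and 3 above. Aif1, with 19 and 30 copies, was called higher only after the tag-end correction, at a log2 ratio of 1.35. Csf1r of the same list had 29 and 23 copies and was not called, at −0.30 and, corrected, −0.43. Of 6 markers of epithelial junctions 3 had a value, at 11.2 and 8.78 TPM in sum, and Cdh1, Dsp and Dsg2 had none. The part of these differences in the lower level of Cdh2 was not tested.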

How the data were processed

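RNA from 1 control and 1 PIWIL1 RNAi culture of rat cortical neurons was profiled by digital gene expression. For each gene the authors deposited a tag count, the sum of the copies of its 21-base tags, without normalization. TPM values deposited beside the counts scale these copies to all clean tags of a library and use no gene length. The tables also hold GO terms and protein descriptions, used only to look for names. The submitters' processing notes name rn4, and the table of gene names is of another assembly, so no positions are printed. The program that matched tags to genes is not given in the sources used here. No tag had fewer than 2 copies. Clean tags, computed from count and TPM, numbered 3386865 (control) and 3303360 (RNAi), of which 57.5% and 56.5% lay on listed genes.

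Genes were named from RefSeq identifiers, and 9337 of 9894 (94.4%) had a symbol. A two-sided Fisher's exact test per gene, on its copies against all other copies on genes, was adjusted by Benjamini-Hochberg (SciPy 1.17.1, Python 3.11.15). Tags with at least 20 copies were tested likewise. Such p-values compare 2 libraries and not the conditions. Intervals are Clopper-Pearson or exact Poisson at 95% and cover counting error only, and tags carried no molecular identifiers. In the correction for the tag end, the copies of each tag were rescaled in both libraries, by equal factors in opposite directions. The factors came from the median log2 ratio, relative to all tags, of tags with the same last 2 bases or closing run of A. These medians used tags with at least 20 copies from the other of 2 random parts of the genes. Scaling alternatives used edgeR 4.0.16 and DESeq2 1.42.0 in R 4.3.3. The scripts were tested on simulated data. In the lists, the genes named were those called with at least 50 copies in total, the most copied gene of each list and, among genes with 50 copies or more, the one with the largest ratio in size. Csnk1a1, Cdh10, Cdh11, Gsk3a, Gsk3b, Apc, Apc2 and single markers were named after their values were seen. The members, lists and alternatives were chosen with earlier results of these data known. The share of Ctnnd1 among Ctnnd1 and Ctnnd2 could not be computed, as Ctnnd2 had no value.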

Additional observations from a re-analysis of the deposited data

How the results depend on the processing

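Cdh2 was lower in the RNAi library under all 16 alternatives tried, with log2 ratios from −0.72 to −0.45, but its call was lost under 7 of them. It fell below the size threshold with TMM factors (−0.52), DESeq2 size factors (−0.52) and the tag-end correction (−0.45, adjusted p = 1.33e-07 by the same exact test), and at −0.61 it did not reach a stricter threshold of 1. With the biological coefficient of variation set to 0.1, 0.2 or 0.4 in edgeR's exact test, its ratio of −0.61 had an adjusted p of 0.134, 1 and 1. Ctnnd1 changed sign with TMM (0.068) and DESeq2 factors (0.059). The other 4 catenin genes kept their sign and were not called under the 16 alternatives. Genes called lower numbered 591 as reported, and 170, 2 and 0 with the assumed variations, 374 with the tag-end correction, 262 at a log2 ratio of 1 and 257 at an adjusted p of 0.001. Genes called higher numbered 293, and 114, 15, 0, 182, 146 and 163 in the same order. Pathway genes called lower numbered 4, and 1, 0 and 0 with the assumed variations, 2 with the tag-end correction, 2 with 1 copy put back and 1 at an adjusted p of 0.001. Those called higher numbered 3, and 1, 0 and 0 with the assumed variations, 2 with the tag-end correction, 2 with 1 copy put back, 1 at a log2 ratio of 1 and 1 at an adjusted p of 0.001. Tags called lower numbered 1156, and 631 with the tag-end correction, and those of the members numbered 3 as reported and under 4 alternatives, and 2 with the tag-end correction. With the most copied tag alone, Ctnna1 held 69.4% and 77.1% of its pair and Ctnnb1 81.9% in the control library. Beyond the smaller number of calls that stricter thresholds and larger assumed spreads give by construction, the cause was not tested. Counting 1 tag per site, the share of copies at site 1, its minimum of 50 copies and its corrected values were added after seeing the data. No paired analysis was possible because each group is 1 library and the labels carry no replicate numbers, and for the same reason no replicate could be left out. Jup, Ctnnd1 and thinly covered partners are limited by depth.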

Other observations

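At some sites a second, less copied tag was listed beside the main one. The members had 6 such second tags, all listed in the RNAi library alone, each with 2 or 3 copies and with 13 in sum. Over all genes 6004 second tags were listed, 2658 of them in the RNAi library alone and 1859 in the control library alone. Counted in each library, there were 3346 in the control library with 19289 copies and 4145 in the RNAi library with 24998 copies. With these tags left out, the log2 ratio of Cdh2 was −0.62.

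A tag of Jup at site 14, with 4 copies in the control library and 2 in the RNAi library, lay 1 base from a tag of Anks3 with 2 and 0 copies.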
